A study of Mus musculus with 115 samples.

Results

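Hearts of mice that lack Ant1 and also carry the ND6 P25L change in mitochondrial DNA were compared with hearts of mice that lack Ant1 alone, where both had received a vector that carries Ant1. Gene expression was measured with an Ion Torrent AmpliSeq panel, which amplifies 1 short stretch of each gene from heart RNA, and 7 of the 22 hearts belong to this comparison. They were taken by genotype and vector as the sample titles give them, and the libraries that share a title number, genotype and vector code were summed into 1 heart. The knockout ND6 group has 3 hearts (37, 5 and 8) with 16 libraries, and the knockout group has 4 hearts (20, 21, 22 and 27) with 20 libraries, 36 libraries in all.

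All mice are described as C57BL/6JEiJ animals. The control of this comparison, Ant1-/-, already lacks the gene, so the comparison asks what the ND6P25L change adds to that loss. Both groups got 2.5e+11 vector genomes of AAV2/9Des-Gfp-mAnt1, injected into the pericardium, and the matched control vector is AAV2/9Des-Gfp. The labels do not spell out what drives the vectors' genes, and RNA was taken 1, 3, 6, 9 and 12 months after injection without an age for any single heart. The title number is read here as the heart. The labels do not state that these are separate animals, so the p-values measure the spread between samples. In the edgeR fit that spread is estimated over all 22 hearts, not only the 7 compared.

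Ant1, encoded by Slc25a4, is the main adenine nucleotide carrier of heart muscle: it exchanges ATP made in mitochondria for cytosolic ADP. Complex I, the entry point of the respiratory chain, includes ND6 among the proteins that mitochondrial DNA encodes, and the P25L form of ND6 is known to lower complex I activity in mouse tissue. Of the gene lists read here, immediate early genes had the highest median rise. Cells transcribe these within minutes of a stimulus with no need for new protein, and they encode transcription factors such as Fos and Egr1 and brakes on signalling such as Dusp1.

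Slc25a4 itself was read first, since both groups lack the gene and differ from control vector hearts by the vector. Levels are given as CPM, counts scaled to a heart total of 1e+06. Slc25a4 was at 197.4, 197.5, 241 and 174.3 CPM in knockout hearts 20, 21, 22 and 27. In the knockout ND6 hearts it was 55.6 CPM in heart 37, 66.7 in heart 5 and 0.732 in heart 8. Every knockout ND6 heart lay below every knockout heart, and heart 8, although labelled with the Ant1 vector, lay within the 0.219 to 2.03 CPM of the 6 control vector hearts of the same genotypes. All 4 libraries of heart 8 gave this, from 0.565 to 0.954 CPM. Single libraries spanned 72.1 to 270.2 CPM in heart 27 and 24.6 to 75.8 in heart 37. These ranges overlapped, though not between libraries of the same count table. The means were 41.0 ± 35.3 CPM (SD, n = 3) against 202.7 ± 28.0 (SD, n = 4), a difference of -161.6 CPM (exact two-sided permutation test over hearts, p = 0.0571, the smallest that 35 arrangements allow). The edgeR log2 change was -2.30 ± 0.61 (SE, adjusted p = 0.0586), and -1.73 without heart 8 (adjusted p = 0.00328). The groups were thus apart in vector transcript as well as in genotype, and the part of this in the results that follow was not tested. Hearts 61 and 91, whose labels name the control vector while their titles carry the Ant1 vector's code, had 169.1 and 151.3 CPM and were kept out of the comparison.

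**Figure D1:**
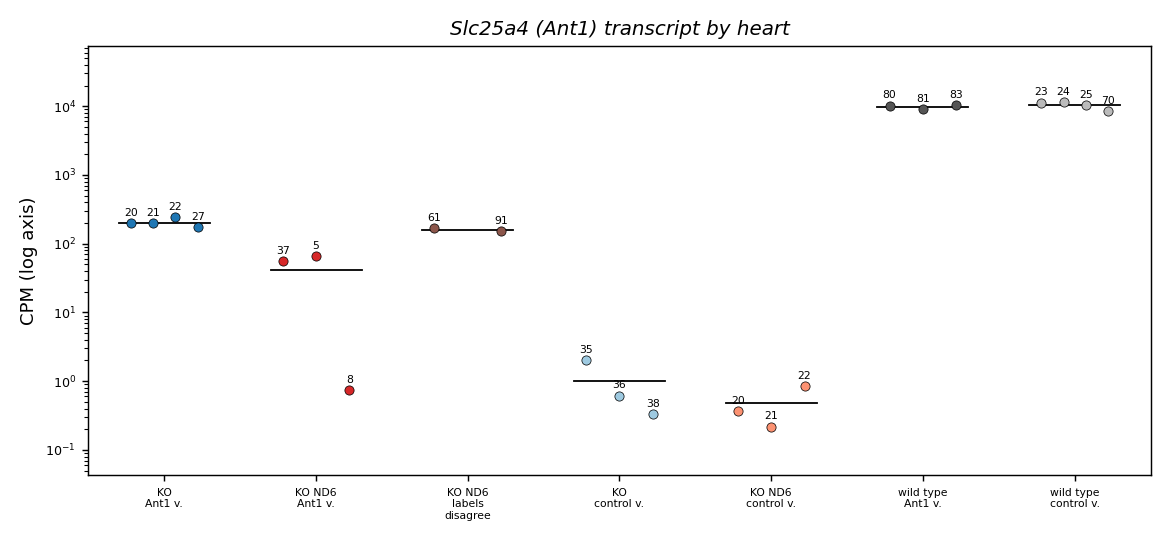
Slc25a4 level in each heart of the Ant1 knockout (KO) and wild type groups, in CPM on a log axis. Points are hearts with their numbers, bars are group means, and "v." stands for vector. The wild type hearts lie far above all others. The 4 knockout hearts with the Ant1 vector sit at 174.3 to 241 and knockout ND6 hearts 37 and 5 at 55.6 and 66.7. Heart 8 sits at 0.732, among the knockout and knockout ND6 hearts with the control vector.

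A second heart stood apart. Heart 5 was the lowest of the 7 hearts for 10 of 10 tested atrial markers, and Bmp10, a growth factor made by atrial muscle, was at 1.51 CPM there against 140 to 206.4 in the other 6 hearts. The 7 hearts have 26762439 to 54779297 counts each. Libraries of a heart correlated at 0.991 to 0.994 (Pearson's r of log values across genes, within a heart), except for the 8 libraries of heart 27 (0.929 to 0.993) and of heart 37 (0.973 to 0.994). Xist, transcribed from the inactive X, was nearly absent and the Y-linked Ddx3y was at 200 to 222 CPM in all 7. Hearts 27 and 37 share library tables, hearts 21, 22, 5 and 8 share others, and heart 20 shares none with a knockout ND6 heart, so the difference was also read within shared tables. Bulk heart RNA was measured, so fewer cells of a type and less RNA per cell cannot be told apart.

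Of 15403 genes tested with edgeR's quasi-likelihood test at an adjusted p (Benjamini-Hochberg) under 0.05, 255 differed (1.66%): 1.07% of the genes were higher and 0.584%, or 90, lower in the knockout ND6 hearts. Of the 255, 240 did not overlap between the groups, while 11% of all tested genes did not. The direction was the same in heart 37 against 27 and in hearts 5 and 8 against 21 and 22 for 246 of the 255, and for 57.6% of all tested genes. Both counts, 240 and 246, come from the same hearts that called the 255, so neither is separate support. A change of 2-fold or more was seen for 46 of the rises and 32 of the falls. The count depended on single hearts: the share called was 0.539% without heart 5, 0.611% without heart 8, 0.855% without heart 22, 0.858% without heart 21, 4.39% without heart 37 and 5.03% without heart 27. Of 66 called genes singled out for description, 33 did not pass without heart 5 and 31 without heart 8. Without knockout heart 20, 21 or 22, the numbers that did not pass were 21 of 66, 23 of 65 and 21 of 66. With the 7 hearts fitted alone 35 genes were called, of which 32 were higher.

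The rises were led by the immediate early genes. Of the 27 on that list, all were tested, 15 rose and 0 fell, beside 1.07% and 0.584% of all tested genes, and 16 did not overlap between the groups and were higher, with 0 lower (5.92% and 5.07% of all). The median log2 change of the 27 was 1.26, against -0.00 for all tested genes. In all 15 that rose, heart 37 was the lowest knockout ND6 heart, heart 8 the middle and heart 5 the highest. The count was 15 without heart 37, 11 without heart 5 and 14 without heart 8.

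Fos is the partner of Jun in the AP-1 transcription factor and lies at chr12:85473890-85477274 (GRCm38.p6). It was at 2.62, 2.16, 2.08 and 3.30 CPM in knockout hearts 20, 21, 22 and 27. In the knockout ND6 hearts it was at 16.3 CPM in heart 37, 111.9 in heart 5 and 61.0 in heart 8. No heart overlapped: the lowest knockout ND6 heart, 37, was well above the highest knockout heart, 27. Fos was 24.3-fold higher (log2 change 4.60 ± 0.61, SE; adjusted p = 0.000243), and its rise held without heart 5 (3.90) and without heart 8 (4.63). Its relative Fosb was at 0, 0.110, 0.329 and 0.320 CPM in knockout hearts 20, 21, 22 and 27, and at 2.76, 6.22 and 3.95 in hearts 37, 5 and 8 (log2 change 4.38 ± 0.75, adjusted p = 0.00379). Jun rose 2.84-fold, from 30.5 to 36.4 CPM up to 56.8, 122.1 and 110.7 in hearts 37, 5 and 8 (adjusted p = 0.000112). Junb rose 4.04-fold (adjusted p = 0.0014), while Fosl2 and Jund had log2 changes of 0.84 and 0.29 that did not pass (adjusted p = 0.238 and 0.614).

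The promoters of 3 of the genes that rose are shown because they carry a sequence through which cAMP and calcium signals are known to switch on immediate early genes, the cAMP response element. The letters searched were TGACG or CGTCA, the half-site on either strand, and TGACGTCA, the full palindrome, which holds the half-site on both strands, overlapping. Capitals mark every match. Each sequence runs 5′ to 3′ on the gene's strand, from 250 bases before the annotated start to 50 after (RefSeq, GRCm38.p6). Fos is at chr12:85473640-85473939 on the plus strand, Btg2 at chr1:134079106-134079405 on the minus strand and Dusp1 at chr17:26508423-26508722 on the minus strand.
Fos: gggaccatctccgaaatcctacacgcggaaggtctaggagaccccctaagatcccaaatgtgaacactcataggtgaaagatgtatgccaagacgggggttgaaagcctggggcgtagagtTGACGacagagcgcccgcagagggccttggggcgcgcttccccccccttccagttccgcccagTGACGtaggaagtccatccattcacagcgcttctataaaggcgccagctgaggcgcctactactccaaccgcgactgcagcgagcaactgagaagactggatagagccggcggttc
Btg2: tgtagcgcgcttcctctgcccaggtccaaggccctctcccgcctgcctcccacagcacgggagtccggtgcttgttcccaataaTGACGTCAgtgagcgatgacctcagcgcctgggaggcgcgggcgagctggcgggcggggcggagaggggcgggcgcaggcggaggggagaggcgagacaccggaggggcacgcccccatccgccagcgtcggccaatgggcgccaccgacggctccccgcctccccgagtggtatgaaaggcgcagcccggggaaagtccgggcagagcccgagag
Dusp1: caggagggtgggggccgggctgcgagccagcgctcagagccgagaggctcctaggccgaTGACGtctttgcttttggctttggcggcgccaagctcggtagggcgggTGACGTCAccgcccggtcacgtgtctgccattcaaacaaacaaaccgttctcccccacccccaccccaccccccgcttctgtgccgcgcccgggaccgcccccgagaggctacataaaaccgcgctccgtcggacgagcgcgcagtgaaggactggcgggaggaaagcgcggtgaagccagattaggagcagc

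Fos holds the half-site at 2 places, of which the nearer begins 66 bases before the start. Btg2 has the full palindrome, and Dusp1 has it with a further half-site before it. A promoter was listed for 12 of the 15 members that rose, and 10 of these 12 (83.3%) hold a half-site. So do 3 of the 11 other members of the list with a promoter (27.3%) and 20.81% of 32851 promoters. The full palindrome is in 2 of the 12 (16.7%) and in 1.79% of promoters. A CArG box, the site of serum response factor and the other known switch of this class, is in 2 of the 12 (Egr2 and Zfp36) and in 1.63% of promoters. In Zfp36 (chr7:28379179-28379478, minus strand) it begins 58 bases before the start, in capitals:
Zfp36: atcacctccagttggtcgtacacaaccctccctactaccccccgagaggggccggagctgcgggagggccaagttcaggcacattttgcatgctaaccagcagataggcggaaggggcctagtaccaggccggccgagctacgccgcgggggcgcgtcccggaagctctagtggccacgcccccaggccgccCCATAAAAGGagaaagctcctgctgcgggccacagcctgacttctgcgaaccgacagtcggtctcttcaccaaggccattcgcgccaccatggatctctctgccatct

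These matches describe letters in a window and were not tied to the change in RNA by any test. The members compared are those that the differences in RNA had sorted.

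The Egr zinc finger factors moved with Fos. Egr1 was at 25.9, 34.8, 30.6 and 23.1 CPM in knockout hearts 20, 21, 22 and 27 and at 36.4, 807 and 534 in knockout ND6 hearts 37, 5 and 8. Hearts 5 and 8 stood far above all others, whereas heart 37 exceeded the highest knockout heart, 21, only slightly. Single libraries of heart 37 spanned 26.9 to 48.8 CPM and overlapped those of heart 21 (31.4 to 39.5) and heart 27 (13.2 to 45.3). The log2 change was 4.01 ± 0.55 (SE, adjusted p = 0.00034), with 0.66 in heart 37 against 27 and 4.35 in hearts 5 and 8 against 21 and 22. Egr3 (chr14:70077317-70082613) was at 2.03, 2.60, 2.01 and 1.75 CPM against 4.39, 40.9 and 27.5, with no overlap (log2 change 3.53 ± 0.44, adjusted p = 0.000134). Egr2 rose too (2.80 ± 0.53, adjusted p = 0.0087). Of the nuclear receptors of the Nr4a family, Nr4a1 was at 20.2, 19.3, 23.9 and 128.96 CPM in knockout hearts 20, 21, 22 and 27 and at 225, 427 and 303 in hearts 37, 5 and 8. Heart 27 stood apart from the other 3 knockout hearts, though below every knockout ND6 heart (log2 change 2.71 ± 0.69, adjusted p = 0.0485). Nr4a2 rose 5.28-fold (adjusted p = 0.0098), and Nr4a3 had a log2 change of -0.31 (adjusted p = 0.759). Without heart 5, Egr2, Nr4a1 and Nr4a2 did not pass (adjusted p = 0.0781, 0.137 and 0.0843), and Nr4a1 did not pass without heart 8 (0.111) or with DESeq2 size factors (0.0512).

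Genes that damp such signals rose as well. Btg2, an antiproliferative regulator of mRNA decay, was at 28.7, 26.1, 27.5 and 40.5 CPM in the knockout hearts and at 62.8, 272 and 164.2 in hearts 37, 5 and 8. Dusp1, a phosphatase that switches off MAP kinases, was at 44.3, 41.3, 49.8 and 46.7 CPM against 93.6, 260 and 165.5. Neither gene overlapped between groups, and heart 5 was highest for both. The log2 changes were 2.43 ± 0.31 (adjusted p = 0.00016) for Btg2 and 1.92 ± 0.24 (adjusted p = 0.000134) for Dusp1. Zfp36, which promotes decay of cytokine mRNAs, rose 2.88-fold (adjusted p = 0.00171). Klf2 and Klf4, zinc finger factors prominent in endothelium, rose 2.34-fold and 2.36-fold (adjusted p = 0.00034 and 0.0016). Ier2 passed the test (log2 change 1.98 ± 0.37, adjusted p = 0.00852), but its hearts overlapped: heart 37, at 10.0 CPM, lay within the 9.21 to 13.4 of the knockout hearts, and without heart 5 it did not pass (adjusted p = 0.0979).

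The other 12 members did not pass. Atf3, the stress factor of this list, did not overlap between the groups, with 19.6 to 25.99 CPM against 46.9 to 68.9 (log2 change 1.26 ± 0.39, adjusted p = 0.0977). Its change under the control vector was 2.06 (adjusted p = 0.0226), and the difference between vectors was -0.80 (adjusted p = 0.578). Myc, Ier3, Ier5 and Gadd45a had log2 changes of 0.08, 0.18, 0.14 and 0.22.

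**Figure D2:**
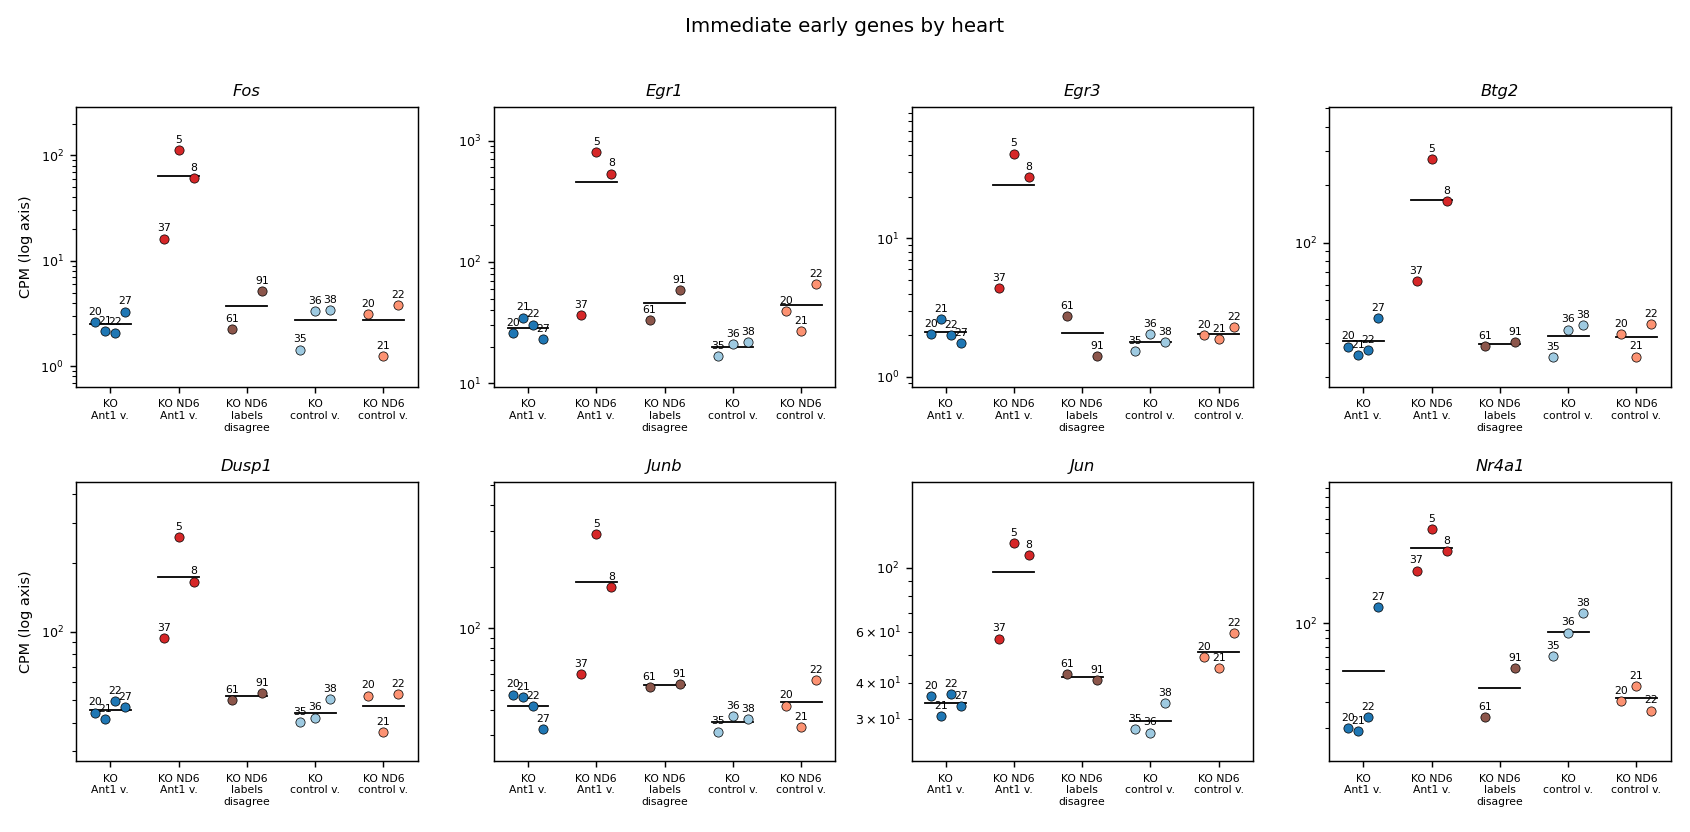
Levels of immediate early genes in each heart, in CPM on log axes; points are hearts, bars are group means, KO is Ant1 knockout and v. is vector. Knockout ND6 hearts 5 and 8 with the Ant1 vector lie highest in every panel. Heart 37 lies between them and the other groups for Fos, at 16.3, but not for Egr1 and Jun, where control vector knockout ND6 heart 22 is above it (66.2 against 36.4 for Egr1).

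Within shared library tables the size differed by pair of hearts. The median log2 change of the 27 immediate early genes was 0.66 in heart 37 against 27 and 1.52 in hearts 5 and 8 against 21 and 22. With 1 heart a side, no gene passed in the first pair, where the lone hearts were assumed to vary like the other groups. Across all genes that rose the medians were 0.51 and 0.73. With the table sets as a block, 15 members rose, but not the same 15. Nr4a2 and Ier2 did not pass (adjusted p = 0.092 and 0.0871). Atf3 was among the members that passed only there (log2 change 1.16, adjusted p = 0.00487). Heart 20 is alone in its set and does not inform that fit. Adding hearts 61 and 91 left 4: their Fos was at 2.26 and 5.15 CPM and their Egr1 at 33.0 and 58.7. For 13 of the 15 genes both of them lay below the lowest of hearts 37, 5 and 8.

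The ND6 change was set beside the same change under the control vector, where 3 knockout ND6 hearts faced 3 knockout hearts and no heart is shared with the first comparison. There Fos was at 1.25 to 3.78 CPM with ND6 and 1.44 to 3.40 without, and Dusp1 at 36.5 to 53.2 and 40.1 to 50.5. The median of the 27 immediate early genes was 0.18, with 3 higher and 1 lower. The difference between the vectors passed for 8 of the 27 (1.42% of all tested genes passed). Among these were Fos (4.60 ± 0.92, SE; adjusted p = 0.015), Btg2 (2.45 ± 0.45, 0.0105), Egr3 (3.33 ± 0.66, 0.0148), Dusp1 (1.82 ± 0.35, 0.0127) and Klf2 (1.59 ± 0.25, 0.00359). For Egr1 it was 2.86 ± 0.78 and did not pass (adjusted p = 0.0704).

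Across all genes, 1.06% changed with ND6 under the control vector, 83 higher (0.539%) and 80 lower (0.519%). The change differed between vectors for 219 genes (1.42%): it was more positive under the Ant1 vector for 0.805% of the genes and more negative for 0.617%. Of the 255 genes changed under the Ant1 vector, 53.7% had the same sign under the control vector, where 51.6% of all tested genes had the same sign. Both comparisons called 5 genes. The AP-1 gene Jun and Lima1, an actin-binding protein, rose under both. Rom1 rose under the Ant1 vector and fell under the control vector (log2 change 0.48 and -0.84), as did Impa2 (0.60 and -0.77), and Trim47 fell under the first and rose under the second (-0.32 and 0.46). Under the Ant1 vector, Lima1, Rom1, Impa2 and Trim47 did not pass without heart 5 (adjusted p = 0.0833, 0.0968, 0.0968 and 0.0639) or without heart 8 (0.164, 0.0925, 0.0777 and 0.202), nor Impa2 without heart 37 (0.119). Of the 255, 83 passed the test of the difference. The stress cytokine Gdf15, which rose with ND6 under the control vector (2.86, adjusted p = 0.00563), was at 42.9, 24.7, 30.6 and 5.29 CPM in knockout hearts 20, 21, 22 and 27 with the Ant1 vector and at 20.7, 13.3 and 18.4 in hearts 37, 5 and 8. These overlapped (-0.55, adjusted p = 0.552), and the difference between vectors was -3.41 ± 0.66 (adjusted p = 0.0127). The inducible chaperones Hspa1a and Hspa1b and the cell cycle genes Rrm2 and Cdk1 had differences of -3.26, -3.33, -1.96 and -1.62 and did not pass under the Ant1 vector alone.

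**Figure D3:**
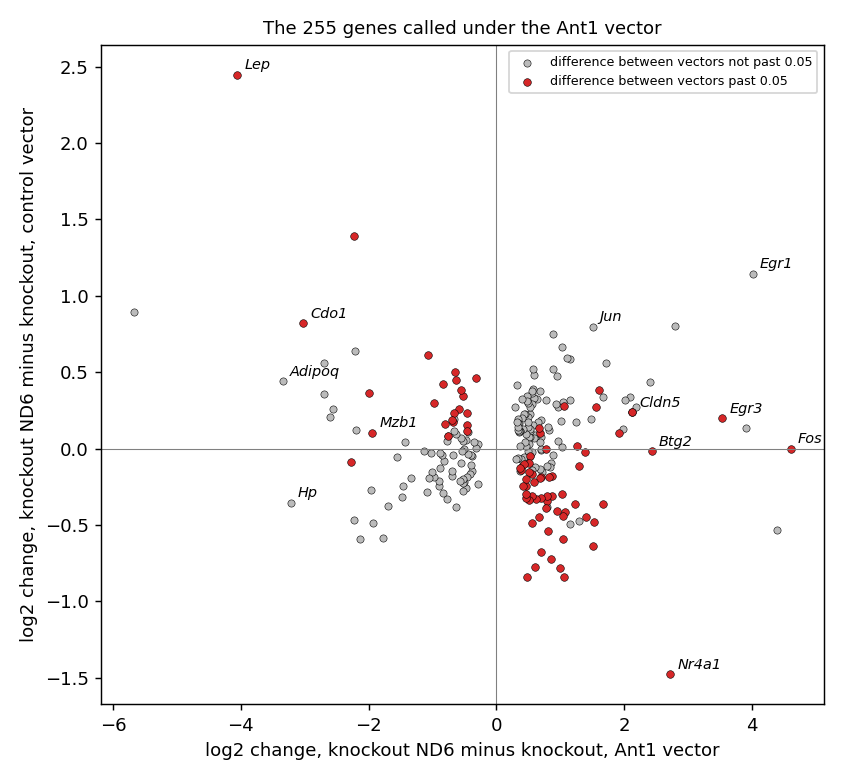
Log2 change with ND6 for the 255 genes called under the Ant1 vector, against the same genes' log2 change under the control vector; each point is 1 gene and red marks genes whose difference between vectors passed. Fos lies at 4.60 on the Ant1 vector axis and near 0 on the other, and 53.7% of the 255 share a sign.

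Endothelial genes followed in part. Cldn5, the tight junction protein of endothelium, was at 5.00, 4.87, 4.27 and 5.11 CPM in knockout hearts 20, 21, 22 and 27 and at 10.7, 31.5 and 21.3 in hearts 37, 5 and 8. The groups were far apart and the knockout hearts nearly equal (log2 change 2.13 ± 0.27, adjusted p = 0.000146; difference between vectors 1.89 ± 0.40, adjusted p = 0.0215). Esam, an endothelial adhesion molecule, rose 1.38-fold (adjusted p = 0.026), but did not pass without heart 5 (0.0747) or heart 8 (0.096). The other 12 of the 14 endothelial markers did not pass, the median of the list was 0.11, and its summed level was 1263 to 1468 CPM against 1203 to 1318. At an unadjusted p under 0.05, 5 were higher and 1 lower (16.5% of all tested genes passed that threshold in either direction). Besides Cldn5 and Esam, Cdh5 (213.6 to 216.1 against 170.4 to 192.8 CPM) and Tie1 (55.3 to 59.4 against 50.2 to 55.0) did not overlap and were higher, while the other 10, among them Pecam1 (169.9 to 269 against 166.8 to 208.9) and Vwf (32.7 to 45.1 against 31.4 to 44.0), overlapped. The matrix gene Col4a2 rose 1.61-fold and was the 1 of 31 collagen and matrix genes to pass, though not without heart 37 (adjusted p = 0.0527) or heart 8 (0.0798).

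Further genes with large or steady rises were Arc, known as an activity-regulated gene of neurons, the kinase Plk3 and Nrarp, a feedback inhibitor of Notch signalling, at 4.35-fold, 4.27-fold and 3.29-fold (adjusted p = 0.00034, 0.00142 and 0.000216). Several more, picked after their values were seen, are known to be induced by growth factor, hormone or stress signals: Cyr61 rose 2.94-fold, Adamts1 2.39-fold, Rasd1 2.85-fold, Csrnp1 2.05-fold, Spry4 2.07-fold, Dusp6 1.84-fold and Sgk1 1.75-fold. Adamts1 was at 74.6, 68.4, 86.2 and 69.5 CPM against 193.1, 178.9 and 163.6, so in this gene heart 37 was highest. Id1 was at 124.9 to 129.8 CPM in the knockout hearts and at 187.7, 227 and 191.9 in hearts 37, 5 and 8 (log2 change 0.67 ± 0.08, adjusted p = 0.000112). Among the clock genes, Per1, which also answers acute signals, was at 108.5, 107.5, 114.9 and 190 CPM against 233, 237 and 235 (0.85 ± 0.17, adjusted p = 0.0146). Dbp rose 1.60-fold, and the other 15 of 17 clock genes did not pass. Without heart 5 no clock gene passed (adjusted p = 0.0586 for Per1 and 0.141 for Dbp), nor without heart 8 (0.0571 and 0.17). Rasd1 did not pass without heart 5 (0.113) or heart 8 (0.0526), nor Dusp6 without heart 5 (0.0623).

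Nmrk2 makes the NAD+ precursor nicotinamide mononucleotide in striated muscle (chr10:81198170-81202265). It was at 32.4, 62.6, 50.1 and 35.1 CPM in knockout hearts 20, 21, 22 and 27 and at 107.5, 170.6 and 150.2 in hearts 37, 5 and 8. Each knockout ND6 heart lay above all knockout hearts, and the change was alike in both sets of tables (1.61 and 1.5). It was 3.17-fold higher (log2 change 1.67 ± 0.22, adjusted p = 0.000183), and the difference between vectors was 2.03 ± 0.32 (adjusted p = 0.00353). Slc25a25, an ATP-Mg/phosphate carrier of the same family as Ant1, rose from 1.92 to 3.03 CPM up to 6.11, 7.55 and 6.11 (1.39 ± 0.27, adjusted p = 0.00936), and did not pass without heart 5 (0.0569).

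Genes of mitochondrial fuel use changed in few places. Ucp3, the uncoupling protein of muscle, was at 71.9, 67.5, 90.1 and 163.3 CPM against 156.8, 261 and 196.6. Heart 27 overlapped with heart 37, its table mate, and the change was -0.06 between those hearts (1.06 ± 0.25 over all, adjusted p = 0.0318). Cpt1a, which loads fatty acids for import into mitochondria, rose 1.42-fold (adjusted p = 0.0483) but had a log2 change of -0.14 in heart 37 against 27. Dlat, a subunit of pyruvate dehydrogenase, rose from 509 to 548 CPM up to 758, 624 and 678 (0.37 ± 0.09, adjusted p = 0.0324). Each of these 3 calls was lost when single hearts were left out. The log2 changes of Ucp3, Cpt1a and Dlat were 1.09, 0.47 and 0.38 without heart 8. They were 0.845, 0.37 and 0.43 without heart 5, and 1.22, 0.66 and 0.29 without heart 37. Without heart 8 none of them passed (adjusted p = 0.0934 for Ucp3, 0.172 for Cpt1a and 0.101 for Dlat), without heart 5 Ucp3 and Cpt1a did not (0.162 and 0.218), and without heart 37 Dlat did not (0.0815). With table sets as a block Ucp3 and Cpt1a did not pass (0.115 and 0.192), and Cpt1a did not with DESeq2 size factors (0.0517). Of the 31 complex I subunits, 15 complex I assembly factors, 36 subunits of complexes II to V and 69 mitochondrial ribosomal proteins, none passed in either direction, and their medians were -0.09, -0.09, -0.08 and -0.00. In the same order, 26, 11, 25 and 39 members had log2 changes below 0, as did 7781 of all 15403 tested genes. At an unadjusted p under 0.05, which 16.5% of all tested genes passed, 0 complex I subunits were higher or lower, 2 assembly factors were lower, 5 subunits of complexes II to V were lower, and 1 mitochondrial ribosomal protein was higher and 3 lower. DESeq2, which called 4.01% of all genes it tested, called 1 ribosomal protein lower and no member of the other 3 lists. The limma voom fit on single libraries called 5 complex I subunits, 7 subunits of complexes II to V and 5 ribosomal proteins lower and 1 ribosomal protein higher, where it called 13.3% of all genes it tested.

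Of the sarcomere genes, Mybpc3, the myosin-binding protein C of heart, was at 2742, 3111, 2922 and 3998 CPM in knockout hearts 20, 21, 22 and 27 and at 5145, 4120 and 5037 in hearts 37, 5 and 8 (0.58 ± 0.14, adjusted p = 0.0348). Tnni3, cardiac troponin I, was at 7022, 6501, 6045 and 6554 CPM against 5394, 5059 and 4961. These did not overlap, by a narrow margin in Mybpc3 and by more in Tnni3 (-0.35 ± 0.07, adjusted p = 0.0187). Mybpc3 did not pass without heart 37 (adjusted p = 0.062) or heart 8 (0.15), nor Tnni3 without heart 5 (0.0826) or heart 8 (0.0984). The other 27 of the 29 sarcomere genes did not pass. None of the 22 fetal and stress genes of heart muscle passed either: Nppb had a log2 change of -0.27 (adjusted p = 0.649), Acta1 0.54 (0.363) and Ankrd1 0.40 (0.236), and the list's median was -0.15 (3 higher and 5 lower at an unadjusted p under 0.05, and 0 higher and 1 lower by DESeq2). The lists for proteasome, heat shock, endoplasmic reticulum stress, interferon response and cell death also had 0 members called by edgeR. At an unadjusted p under 0.05, 7 of the 21 genes of endoplasmic reticulum stress were lower and 0 higher, where 16.5% of all tested genes passed that threshold in either direction, and DESeq2 called 5 of them lower. At that threshold the proteasome list had 1 higher and 2 lower, heat shock 1 and 1, interferon response 2 and 1, and cell death 4 and 0, and DESeq2 called 1 gene, of the cell death list.

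The falls were led by genes of fat tissue. Adipoq, the adipocyte hormone adiponectin, was at 0.840, 5.75, 6.94 and 7.06 CPM in knockout hearts 20, 21, 22 and 27, which rests on 24 to 375 counts. In hearts 37, 5 and 8 it was at 0.879, 0.0736 and 0.402 CPM, from 48, 2 and 11 counts. Heart 20 lay with the knockout ND6 hearts and just below heart 37, so the groups overlapped (log2 change -3.35 ± 0.73, adjusted p = 0.0212). Lep, leptin, gave 4, 61, 41 and 30 counts against 5, 2 and 0 (adjusted p = 0.027). Hp, the acute phase and fat tissue protein haptoglobin, was at 7.38, 34.4, 41.4 and 48.7 CPM against 6.44, 1.14 and 2.38. Cdo1, cysteine dioxygenase, was at 5.53, 27.4, 26.3 and 40.5 CPM against 4.72, 1.73 and 2.38. In both genes the groups were separate by a small gap between heart 20 and heart 37. Hp was 9.32-fold lower (adjusted p = 0.0219) and Cdo1 8.14-fold lower (adjusted p = 0.00796), and the difference between vectors for Cdo1 was -3.85 ± 0.78 (adjusted p = 0.0153).

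All 12 adipocyte markers were tested: 2 fell (Adipoq and Lep) and 0 rose, beside 0.584% and 1.07% of all tested genes. The median log2 change was -2.44, with 10 members below 0 and 2 above, Fabp4 and Cidea (0.13, adjusted p = 0.639). Heart 20 was the lowest knockout heart for 8 of the 12. Plin1, which coats the lipid droplet, was at 2.31, 16.5, 11.2 and 17.0 CPM against 3.64, 0.626 and 1.32 (-2.57 ± 0.72, adjusted p = 0.0695). Fabp4 and Lpl, which other heart cells also express, had changes of 0.10 and -0.16, and they set the list's summed level of 4413 to 4765 CPM against 5066 to 6093. The calls rested on hearts 5 and 8: 0 members passed without heart 5, 0 without heart 8 and 7 without heart 37, and Hp and Cdo1 passed neither without heart 5 (adjusted p = 0.104 and 0.0583) nor without heart 8 (0.111 and 0.0529). Without heart 20, 4 members passed.

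Markers of some other cell types had negative medians, and those of others did not. Mzb1, a plasma cell and B cell protein, was at 3.18, 11.1, 4.45 and 5.82 CPM against 2.38, 0.957 and 1.28 (-1.94 ± 0.37, adjusted p = 0.00852), and did not pass without heart 5 (0.0586) or heart 8 (0.0563). The median of the 13 lymphocyte and granulocyte markers was -0.66, with 1 lower and 1 higher (Kit), and the summed level was 13.5 to 18 CPM against 13.01 to 37.7, with the lowest sum in knockout heart 20. Kit did not pass without heart 5 (adjusted p = 0.0813) or heart 8 (0.0639). Of 11 neuronal and glial markers 2 fell, Tubb3, a neuronal tubulin, 1.98-fold and Chga, which had 4, 9, 2 and 12 counts against 0 in each knockout ND6 heart. Neither passed without heart 5 (adjusted p = 0.106 and 0.104) or heart 8 (0.127 and 0.111), nor Chga without heart 37 (0.0705). That list's median was -0.98, and its summed level 25.98 to 30.3 CPM against 29.9 to 44.9. The 9 epicardial and mesothelial markers had a median of -0.73, with 0 called and 3 lower at an unadjusted p under 0.05, and 40.7 to 74.1 CPM against 61.3 to 90.2. The 10 skeletal muscle markers had a median of 0.41, with 9 above 0, 5 higher at an unadjusted p under 0.05 and 1 called (Myh1), and 895 to 1035 CPM against 733 to 946. The 8 liver transcripts had a median of 0.71 but a lower sum (11.6 to 33.1 against 33.3 to 71.7 CPM), with 1 called lower (Hp). The medians of the macrophage and of the smooth muscle and pericyte markers were 0.04 and 0.08, and that of the fibroblast markers -0.14, with 0 called in each and 1, 1 and 2 past an unadjusted p of 0.05. The part that such tissue in the samples plays in the falls was not tested.

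Atrial genes were lower mainly in heart 5. Sln, the inhibitor of the calcium pump in atrial muscle (chr9:53850251-53853849), was at 304, 318, 315 and 327 CPM in knockout hearts 20, 21, 22 and 27 and at 209.1, 49.2 and 175.2 in hearts 37, 5 and 8. All 3 lay below the tight range of the knockout hearts (-1.13 ± 0.28, adjusted p = 0.0431), and the change was -0.72 without heart 5 (adjusted p = 0.0349) and -1.29 without heart 8 (adjusted p = 0.0847). With table sets as a block Sln did not pass (-1.22, adjusted p = 0.129). The atrial light chain Myl7 was at 777, 940, 962 and 1035 CPM against 693, 153.9 and 513 (-1.03 ± 0.30, adjusted p = 0.0798). Nppa, atrial natriuretic peptide, was at 4358, 3648, 3564 and 3868 CPM against 2717, 1072 and 3841 (-0.60 ± 0.24, adjusted p = 0.212), and without heart 8 it was -1.03 (adjusted p = 0.0447). Sln was the 1 of 10 atrial markers called. The list's median was -0.56, and -0.20 without heart 5, and its summed level was 4255, 1479 and 5053 CPM in hearts 37, 5 and 8 against 5423 to 6065. Myl4 was near 0 in every heart, from 0.110 to 0.565 CPM. The 10 ventricular markers had a median of 0.09, with 66300 to 77120 CPM against 67130 to 71610. The part of atrial tissue in the results that rest on heart 5 was not tested.

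**Figure D4:**
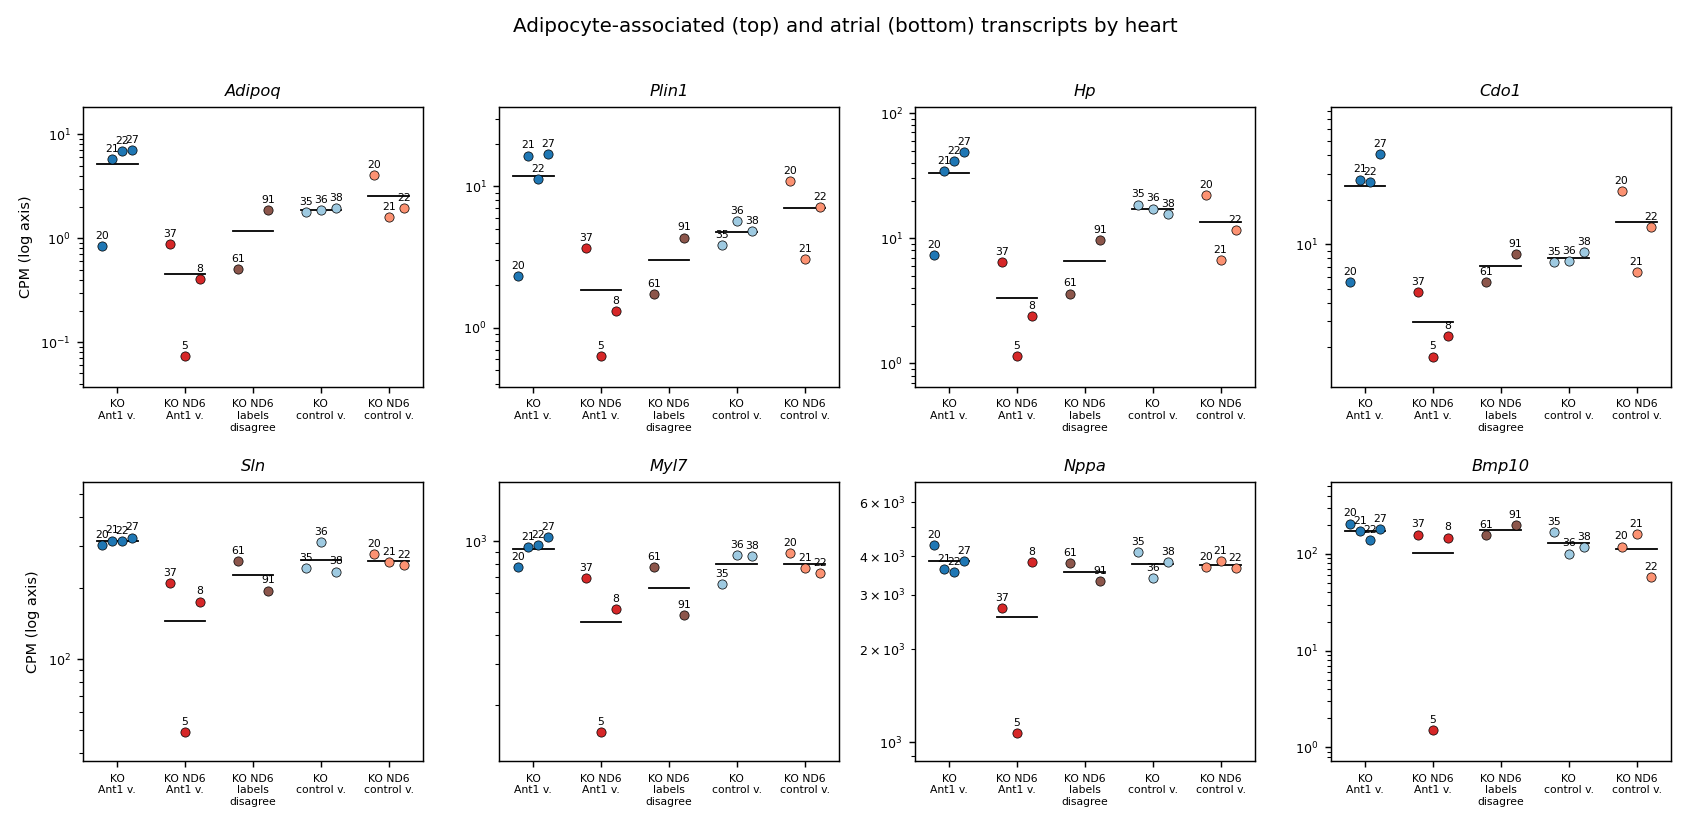
Levels of fat tissue and atrial genes in each heart, in CPM on log axes; points are hearts with their numbers, bars are group means, KO is Ant1 knockout and v. is vector. Knockout heart 20 lies beside knockout ND6 heart 37 for the fat genes, with Adipoq at 0.840 and 0.879, and heart 5 is far below the rest for Bmp10, at 1.51.

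A few falls lay outside these groups. Banp, a nuclear matrix binding protein, was at 46.9, 45.9, 39.8 and 42.7 CPM in knockout hearts 20, 21, 22 and 27 and at 25.6, 17.1 and 19.5 in hearts 37, 5 and 8. Rab30, a Golgi GTPase, was at 18.4, 18.6, 19.1 and 16.5 CPM against 11.1, 8.62 and 7.68. Both were separate by a clear gap, with log2 changes of -1.07 ± 0.15 (adjusted p = 0.00035) and -0.98 ± 0.15 (adjusted p = 0.0014). Each differed between vectors, by -1.68 ± 0.22 (adjusted p = 0.00091) and -1.28 ± 0.22 (adjusted p = 0.00634). Uroc1, a histidine breakdown enzyme, 5730435O14Rik, AY761185 and Spata25 fell 3.24-fold, 2.75-fold, 2.53-fold and 2.04-fold, and in these 4 heart 37 was the lowest heart. Without heart 5, Uroc1, 5730435O14Rik and Spata25 did not pass (adjusted p = 0.0914, 0.0526 and 0.0752), Uroc1 and Spata25 did not without heart 37 (0.074 and 0.113) or heart 8 (0.0853 and 0.132), and with table sets as a block none of the 4 did (0.0978, 0.0853, 0.0756 for AY761185 and 0.128). Rspo1, a Wnt agonist, fell 1.87-fold (adjusted p = 0.0186), but did not pass without heart 5 (0.0599) or heart 8 (0.109). Ifi27l2a, an interferon-induced gene, fell 1.87-fold and did not pass without heart 5 (0.161) or heart 8 (0.139), while 0 of the 32 interferon response genes passed. The fast skeletal myosin Myh1 passed (adjusted p = 0.0498) through 1 heart, with 435 counts in heart 37 and 2 to 14 in the others.

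**Figure D5:**
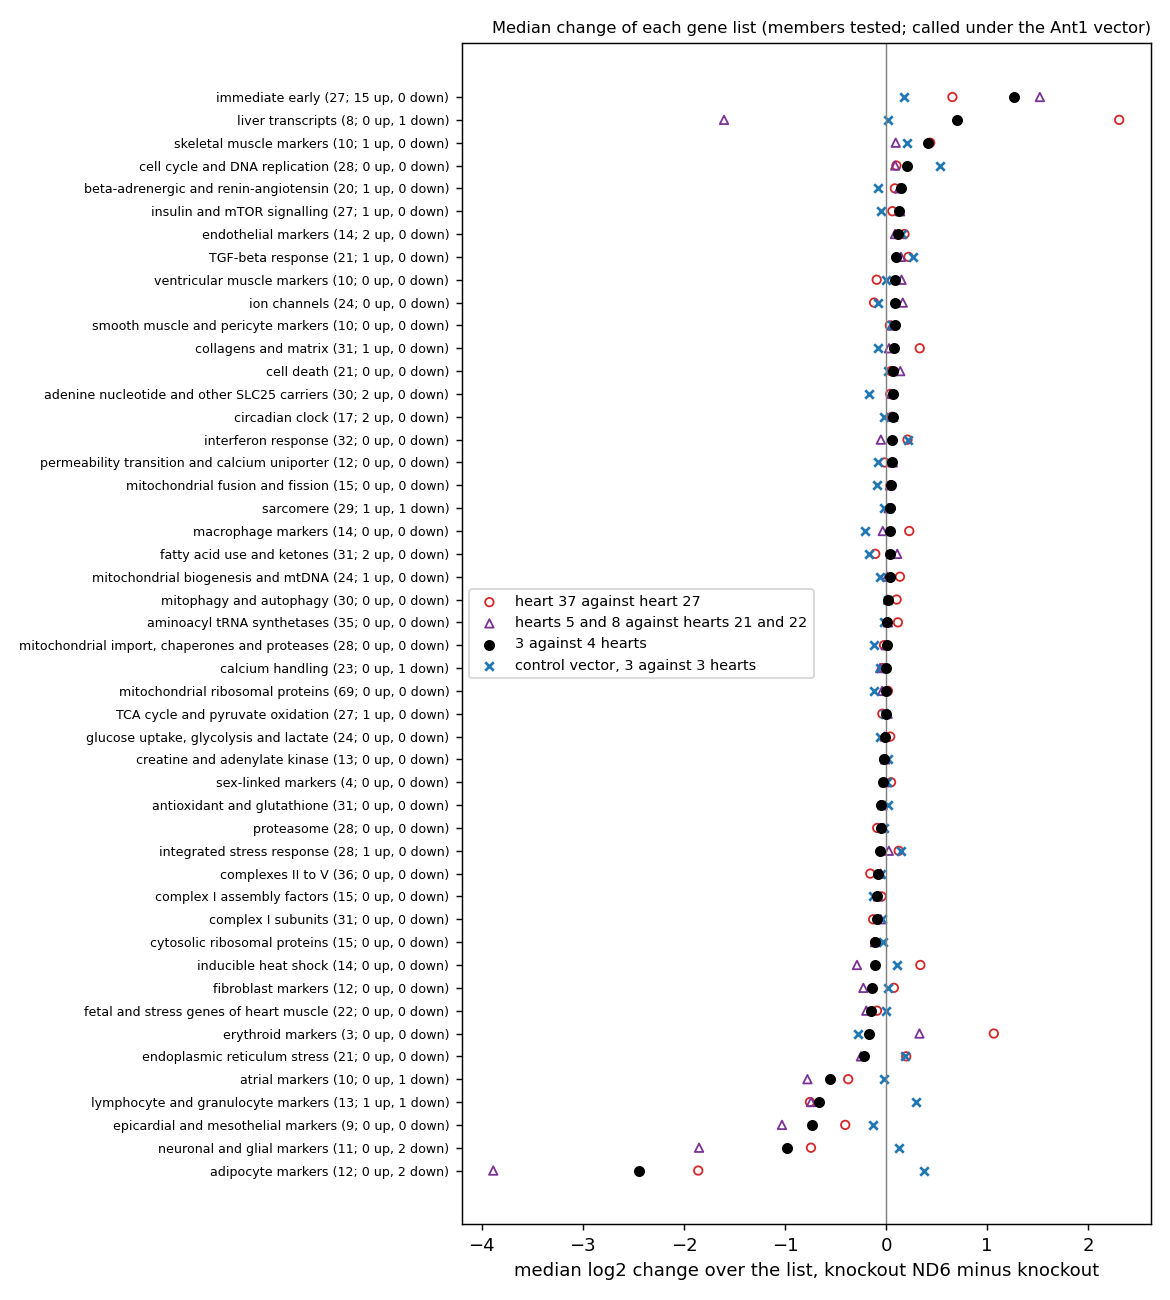
Median log2 change of each of the 48 gene lists, knockout ND6 against knockout; black points are 3 hearts against 4 with the Ant1 vector, open circles heart 37 against 27, triangles hearts 5 and 8 against 21 and 22, crosses the control vector, and the grey line the median of all tested genes. Immediate early genes lie highest at 1.26 and adipocyte markers lowest at -2.44, and in 28 of the lists no member was called.

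Over the 48 lists, 28 had no member called, where 1.66% of all tested genes were called. The lists hold 989 of the 15403 tested genes. Of the 255 called genes 40 were on a list and 215 on none, so most of what changed is not described by these groups.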

How the data were processed

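Gene expression in mouse hearts was measured with Ion Torrent AmpliSeq libraries, per the labels. The deposited tables hold raw counts per amplicon and library, made by the authors with no normalization recorded. The submitters' processing notes name mm10, and no source used here names the aligner or counter. The 14 tables hold 23930 amplicons in 112 libraries; 27 symbols that had become dates were set back to gene names, and 21913 symbols matched RefSeq GRCm38.p6 directly and 741 by a synonym. Single-nucleus data (3 samples) were not analysed here, nor were 2 wild type libraries whose recorded vector and title code disagree. Other libraries of the same wild type heart entered the fit. Compared libraries hold 2893780 to 8020110 counts (median 6871983), and no pair of libraries held identical values.

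Counts were summed per heart (22 hearts, 7 groups) and fitted with edgeR 4.0.16 (TMM, filterByExpr, quasi-likelihood F-test, Benjamini-Hochberg at 0.05 over 15403 genes). CPM are TMM-adjusted. Standard errors are the log2 change divided by the square root of F. Slc25a4 had an exact permutation test. A fold of a gene with 0 counts throughout a group is not given. The members, gene lists and tests were chosen with earlier results of these data known. The text names the 12 largest rises and falls that passed with a mean of 5 CPM or more where higher, no overlap and 1 direction in both sets of library tables, a set of heart and stress genes, and up to 4 members of each list. Alternatives were DESeq2 1.42.0, limma 3.58.1 voom on single libraries, DESeq2 size factors, no count filter, table sets as a block, other sets of hearts, and each heart left out. One single-gene result is not reported here.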

Additional observations from a re-analysis of the deposited data

Results flagged for a closer look

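In 5 of 80 genes examined, 1 of the 4 knockout hearts with the Ant1 vector lay far from the other 3 by a gap test (Dixon), which chance alone gives in about 1 of 20 groups. Heart 27 was high for Nr4a1 (128.96 CPM), Per1 (190.3 CPM) and Gadd45b (47.7 CPM) and low for Cyr61 (56.1 CPM), and heart 20 was high for Esam (127.1 CPM).

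The ND6 change differed between the vectors for 43 of 84 genes examined (edgeR test of the difference, adjusted p under 0.05; values are log2, Ant1 vector minus control vector). These genes were mostly picked because they had changed or differed, so their share is no rate; over all tested genes 1.42% differed. It was higher under the Ant1 vector for the immediate early genes Fos (4.60), Nr4a1 (4.19), Egr3 (3.33), Gadd45b (2.61), Btg2 (2.45), Zfp36 (2.01), Dusp1 (1.82) and Klf2 (1.59). The same was seen for the signalling genes Akap5 (2.54), Rasd1 (2.15), Arc (1.88), Csrnp1 (1.48), Sgk1 (1.35), Spry4 (0.77) and Gsk3b (0.53), and for the clock gene Per1 (1.57). Vessel and matrix genes in this direction were Cldn5 (1.89), Cyr61 (1.29), Adamts1 (1.24), Bcl6b (1.22), Esam (0.66) and Id1 (0.53). Metabolic genes were Nmrk2 (2.03), Ucp3 (1.90), Slc25a25 (1.84), Impa2 (1.38), Cpt1a (0.84) and hexokinase Hk1 (0.53), and the others were the hormone precursor Agt (2.47) and Rom1 (1.32). It was lower for Lep (-6.50), Cdo1 (-3.85), the fatty acid desaturase Scd1 (-3.51), Gdf15 (-3.41), the chemokine Ccl12 (-3.41), the chaperones Hspa1b (-3.33) and Hspa1a (-3.26), Mzb1 (-2.05), the replication gene Rrm2 (-1.96), Banp (-1.68), Cdk1 (-1.62), Rab30 (-1.28) and Trim47 (-0.78). For Agt, Hk1, Gadd45b, Akap5, Scd1, Ccl12, Gdf15, Hspa1a, Hspa1b, Rrm2 and Cdk1 the change under the Ant1 vector did not pass by itself.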

How the results depend on the processing

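Shares are of the genes tested under each setting. The 255 genes (1.66%) called under the Ant1 vector became 1.55% with DESeq2 size factors, 4.01% with DESeq2 (51.8% of these higher), 13.3% with limma voom on single libraries (50.7% higher), 0.255% with only the compared hearts fitted (91.4% higher) and 354 genes, 50% higher, with table sets as a block. They became 6.32% without hearts 27 and 37, 4.7% in hearts 5 and 8 against 21 and 22, 0 in heart 37 against 27, 0.541% with hearts 61 and 91 added, and 0.539% to 5.03% with each heart left out. Directions were the same for 255 of 255 genes under DESeq2 and 247 of 255 in heart 37 against 27, both read on hearts that had called these genes. The 219 genes (1.42%) that differed between vectors became 2.87% with DESeq2, 0.844% with only the compared hearts, 11.6% with voom, 5.78% without hearts 27 and 37, 4.51% in hearts 5 and 8 against 21 and 22, 0.0246% in heart 37 against 27, 0.18% with hearts 61 and 91, 0.961% with libraries a to d and 0.37% to 3.7% with each heart left out. Those under the control vector (1.06%) became 3.22% with DESeq2 and 0.299% to 0.514% with each heart left out. Immediate early genes called higher (15) numbered 10 to 19 under all but 2 alternatives: 0 in heart 37 against 27 and 4 with hearts 61 and 91 added. Adipocyte genes called lower (2) ranged from 0 to 9.

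Of 66 called genes named in the text or picked by rule, none passed under every alternative, since 1 heart a side passed no gene: 64 kept only their direction there. Calls lost numbered 33 of 66 without heart 5, 31 without heart 8, 10 of 65 without heart 37, 46 of 64 with hearts 61 and 91 added, 38 of 64 with only the compared hearts, 12 of 64 with table sets as a block and 0 of 64 with DESeq2. Over all genes described, called or not, 14 pairs of a gene's value and a setting had a reversed direction. Among the 66 called genes only 2 did so, Ucp3 and Cpt1a in heart 37 against 27. The cause of the reversals and of the lost calls was not tested. With table sets as a block the log2 changes under the Ant1 vector were 0.058 for Gdf15, 0.021 for Nppb and -0.065 for Agt. With voom they were 0.084 for Nppb and 0.007 for Hk1. In heart 37 against 27 they were 1.962 for Gdf15, 0.946 for Nppb, 0.221 for Hk1, -0.061 for Ucp3 and -0.137 for Cpt1a, and the difference between vectors for Nppb was 0.325. Agt was -0.674 without hearts 27 and 37, -0.648 in hearts 5 and 8 against 21 and 22, and -0.723 to 0.471 with each heart left out.

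No paired analysis was possible because the groups compared under each vector share no replicate number. Between vectors, knockout hearts with the Ant1 vector and knockout ND6 hearts with the control vector share 20, 21 and 22, but every heart of the other 2 groups is alone in its number, so a block leaves the difference without an estimate. In the block fit, heart 20 is alone in its set and does not inform the comparison. The alternatives on sex were not run, since all 7 hearts were male by Xist and Ddx3y. Genes at a few counts, such as Lep and Chga, are limited by depth.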
